A study of Arabidopsis thaliana with 6 samples.

Results

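Transcript levels of 44 genes of pattern-triggered immunity were compared between wild-type and *ref4-3* rosettes of *Arabidopsis thaliana*. The 44 genes were taken by their locus identifiers from the 36796 genes of the counts table for their roles, and they code for cell surface receptors, co-receptors and their adaptors, receptor-like cytoplasmic kinases, NADPH oxidases, calcium-dependent kinases, MAP kinase cascade components, plant U-box ubiquitin ligases, precursors of danger peptides and early response markers. These genes and the further lists below were chosen with earlier results of these data known. Their shares set beside those of all tested genes are therefore descriptions. Both genotypes were in the Col-0 background. The *ref4-3* plants carry a semidominant point mutation in the gene for *MED5b*, a tail subunit of Mediator, the complex that links transcription factors to RNA polymerase II. RNA was prepared from rosettes of 21-day-old plants without an elicitor treatment, and each genotype had 3 replicates in which 5 unbolted plants were pooled. Seeds of both genotypes were kept cold for 3 days, and plants then grew on soil at 22°C and 150 μE in days of 16 h and nights of 8 h and were collected 6 h into the light period.

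Plants detect conserved microbial molecules, and fragments or peptides released from their own damaged cells, with receptors at the plasma membrane. An activated receptor pairs with a co-receptor kinase, and cytoplasmic kinases bound to the complex are released to activate the NADPH oxidase that makes reactive oxygen, calcium signaling and MAP kinase cascades. Ubiquitin ligases and phosphatases then damp the signal, and many genes of this pathway are themselves induced when it is active. In rosette tissue the transcripts come from many cell types, and fewer cells of a type cannot be told apart from less RNA per cell in these samples.

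Of the 44 genes, 43 passed edgeR's filter on low counts and were tested among 23050 genes. In *ref4-3* plants, 15 of the 43 exhibited lower transcript levels at an adjusted p-value under 0.05 (edgeR quasi-likelihood test), beside 11.9% of all tested genes, and 13 of them were lower by more than 2-fold, beside 5.24%. The 15 genes were *LYK4* and *SD1-29* among the receptors, *BIR1*, *BIK1*, *RBOHD*, *CPK28*, *MPK3*, *MPK11*, *MKK2*, *MKK9*, *MKS1*, *PUB12*, *PUB22*, *PUB23* and *PUB24*. With the same test 0 of the 43 genes were higher, beside 8.52% of all tested genes (4.48% by more than 2-fold). edgeR's exact test and DESeq2 also called 0 genes higher. The median log2 fold change of the 43 genes was -0.74, whereas the median of all tested genes was 0.01. For 28 of the 43 genes every *ref4-3* library was below every wild-type library, beside 22.8% of all tested genes, and for 2 every one was above, beside 22.4%. Leaving out *ref4-3* replicate 1, 2 or 3 reduced the 15 genes to 7, 5 and 4, respectively, while the lower genes among all genes went from 2737 to 1757, 1028 and 588. *LYK4*, *MKK9*, *MPK11* and *PUB24* passed the test in each of the 6 fits that left out a library.

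The libraries held 26060005 to 32879414 counts. By library total alone, without TMM factors, 3 counts, taken as the smallest detectable signal, equal 0.0912 to 0.115 CPM. Such limits cover counting error only. All other CPM here are counts relative to library size after TMM normalization, which adjusts for differences in composition between libraries. Wild-type replicate 2 stood apart: it had counts on 27913 genes, against 32015 to 34884 in the other libraries, and the summed level of the 44 genes was 5554 CPM in it, 2434 and 3120 CPM in wild-type replicates 1 and 3 and 2083, 1958 and 2382 CPM in *ref4-3* replicates 1, 2 and 3. It held the highest of the 6 values for 32 of the 43 tested genes, beside 24.1% of all tested genes, and the highest of the 3 wild-type values for 38, beside 33.8%. It was also highest for all 15 lower genes. Their highest library was a wild-type one in each case, so the 24.1% is not their comparison. Without wild-type replicate 2, the 15 genes still passed the test, and *MEKK1* and *PEPR1* were lower as well, beside 8.05% of all tested genes. The number lower by more than 2-fold was then 10, beside 4.09%, the median log2 fold change was -0.43, and *RBOHF* was the 1 gene that was higher (log2 fold change 0.65, edgeR adjusted p = 0.0475), beside 4.55%, with 0 higher by more than 2-fold, beside 2.92%. Leaf mesophyll markers (*RBCS1A*, *CAB1*, *RBCS3B* and *LHCA2*) summed to 46060 to 51300 CPM in wild-type and 25200 to 32200 CPM in *ref4-3* libraries. The sum of 4 flower markers (*AP1*, *AP3*, *PI* and *AG*) was 7.72 to 10.7 CPM in wild-type and 4.53 to 7.27 CPM in *ref4-3* libraries, and that of 4 root markers (*CASP1*, *CASP2*, *RHD6* and *COBL9*) was 0.661 to 0.784 CPM and 1.23 to 1.66 CPM. None of these 12 markers was at 0 in every library of a genotype, and their part in the results was not tested. The mutated gene *MED5b* was at 20.2, 26.6 and 17.9 CPM in wild-type replicates 1, 2 and 3 and at 16.6, 18.7 and 16.8 CPM in *ref4-3* replicates 1, 2 and 3, and these groups overlapped. Since *ref4-3* is a point mutation, this level does not check the genotype.

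**Figure D1:**
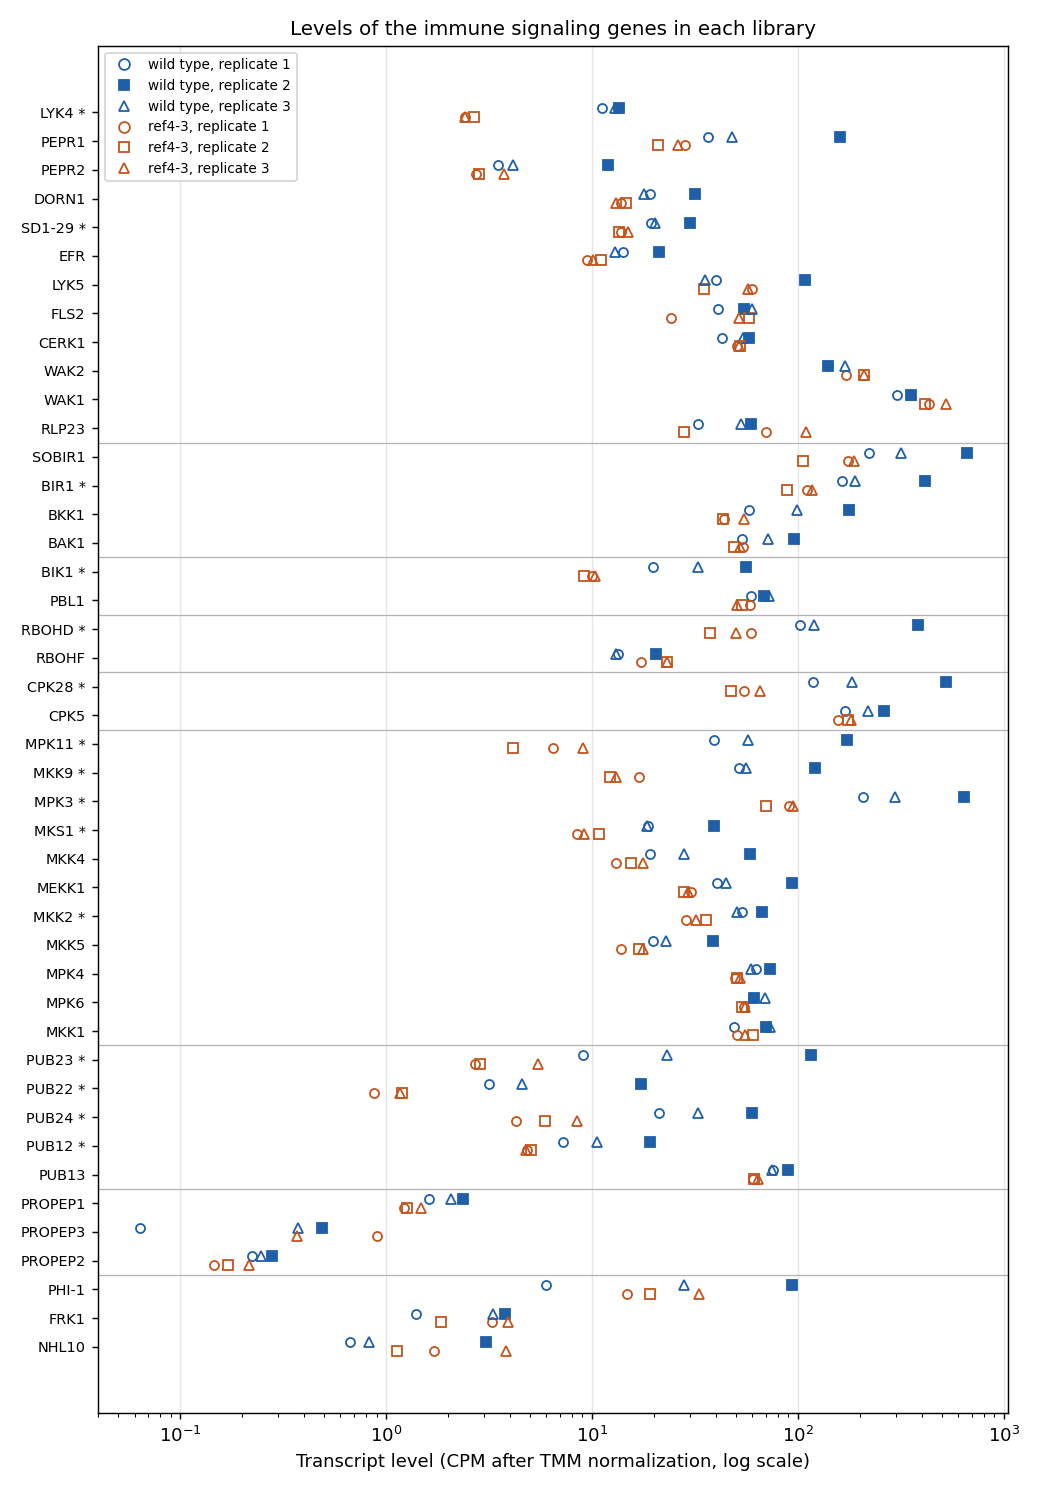
Transcript level of each of the 44 genes (rows, grouped by role) in each library, as CPM after TMM normalization on a log axis. Blue symbols are wild-type and orange symbols *ref4-3* libraries, the filled square is wild-type replicate 2, an asterisk marks the 15 genes with an edgeR adjusted p-value under 0.05, and *PROPEP3* in *ref4-3* replicate 2, at 0, is not drawn. The filled square is the rightmost symbol of 32 of the 43 tested rows.

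Of the 12 receptor genes, 2 (16.7%) were lower in *ref4-3* plants, a share near the 11.9% of all tested genes. Of the 12, 8 had a negative and 4 a positive log2 fold change, beside 11291 and 11759 of all tested genes, and their median was -0.46. The flagellin receptor gene *FLS2* and the chitin receptor kinase gene *CERK1* were not among the lower genes. *FLS2* (*AT5G46330*), the flagellin receptor, was at 40.8, 54.9 and 59.9 CPM in wild-type replicates 1, 2 and 3 and at 24.3, 58.3 and 51.8 CPM in *ref4-3* replicates 1, 2 and 3 (the replicates follow this order throughout). The groups overlapped, with a log2 fold change of -0.21 (SE 0.31, edgeR adjusted p = 0.639), and without *ref4-3* replicate 1, the lowest library, it was 0.08. *CERK1* (*AT3G21630*), the LysM kinase required for chitin signaling, was at 42.7, 58.0 and 54.0 CPM in wild type and at 50.5, 52.6 and 51.6 CPM in the mutant. Its means of 51.5 ± 7.94 and 51.6 ± 1.08 CPM (SD, n = 3 libraries each) differed by less than the spread within wild type (log2 fold change 0.00, SE 0.14, edgeR adjusted p = 0.989). *EFR* (*AT5G20480*), which binds bacterial elongation factor Tu, was at 14.2, 21.2 and 12.9 CPM in wild type and at 9.47, 11.1 and 10.11 CPM in the mutant. Here the groups did not overlap, but the log2 fold change of -0.65 (SE 0.20) had an edgeR adjusted p of 0.0585 and missed the threshold.

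*LYK4* (*AT2G23770*, chromosome 2 of TAIR10.1 from 10119973 to 10122479, minus strand), a LysM receptor-like kinase that contributes to chitin signaling, had the smallest adjusted p-value of the 43 genes. Its levels were 11.1, 13.5 and 12.96 CPM in wild type and 2.41, 2.67 and 2.41 CPM in the mutant. The libraries of a genotype lay close together and the genotypes far apart, with a log2 fold change of -2.32 (SE 0.15, edgeR adjusted p = 4.87e-04) that stayed between -2.43 and -2.29 when any library was left out. Wild-type replicate 2 was close to the other wild-type libraries for this gene. *LYK5* (*AT2G33580*), the related chitin-binding receptor, was at 61.4 ± 40.8 CPM in wild-type and 50.8 ± 13.7 CPM in the mutant (SD, n = 3). Its log2 fold change of -0.27 (edgeR adjusted p = 0.664) became 0.41 without wild-type replicate 2. *SD1-29* (*AT1G61380*), known as LORE, the receptor for bacterial 3-hydroxy fatty acids, fell from 23.2 ± 5.89 to 14.2 ± 0.771 CPM (log2 fold change -0.71, SE 0.18, edgeR adjusted p = 0.0345).

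The receptors of danger signals from the plant itself included genes just outside the threshold. *PEPR1* (*AT1G73080*), a receptor of Pep peptides, was at 36.6, 159.9 and 47.8 CPM in wild type and at 28.5, 21.1 and 26.3 CPM in the mutant. All *ref4-3* libraries lay below, with a log2 fold change of -1.69 (SE 0.52, edgeR adjusted p = 0.0578), which was -0.76 without wild-type replicate 2 (edgeR adjusted p = 0.0365, range over the 6 fits that left out a library 0.0228 to 0.159). Its paralogue *PEPR2* (*AT1G17750*) was at 6.54 ± 4.74 and 3.09 ± 0.561 CPM (log2 fold change -1.08, edgeR adjusted p = 0.131), and the log2 fold change was -0.32 without wild-type replicate 2. For *DORN1* (*AT5G60300*), the receptor of extracellular ATP, the means were 22.8 ± 7.60 and 13.9 ± 0.769 CPM (log2 fold change -0.72, edgeR adjusted p = 0.0575). *RLP23* (*AT2G32680*), a receptor-like protein that binds a peptide of microbial NLP toxins, ranged from 32.8 to 59.1 CPM in wild-type and from 28.2 to 109 CPM in *ref4-3* libraries, so that its groups overlapped (log2 fold change 0.53, edgeR adjusted p = 0.408).

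The wall-associated kinases pointed the other way. *WAK1* (*AT1G21250*), which binds pectin and its fragments, was at 303.6, 355.2 and 354.9 CPM in wild type and at 437, 416 and 525 CPM in the mutant. *WAK2* (*AT1G21270*), its neighbor on chromosome 1, was at 139.9, 140.4 and 170.1 CPM in wild type and at 172, 211 and 209 CPM in the mutant. The genotypes did not overlap for either gene, but the log2 fold changes of 0.44 (SE 0.14, edgeR adjusted p = 0.0649) and 0.40 (SE 0.14, edgeR adjusted p = 0.0863) did not pass the threshold. With library totals in place of TMM factors, which moved the median log2 fold change of all genes from 0.01 to 0.26, the values were 0.70 and 0.65 and both genes passed.

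Of the 4 genes for co-receptors and their adaptors and regulators, *BIR1* (25.0%) was lower, beside 11.9% of all tested genes. The other 3 had negative log2 fold changes that missed the threshold, and 11291 of the 23050 tested genes had a negative value. *BAK1* (*AT4G33430*), the shared co-receptor of *FLS2*, *EFR* and other receptors, was at 53.8, 95.7 and 71.75 CPM in wild type and at 54.4, 49.2 and 52.2 CPM in the mutant. The groups overlapped at wild-type replicate 1 (log2 fold change -0.50, SE 0.20, edgeR adjusted p = 0.111). *BKK1* (*AT2G13790*), the closely related co-receptor, was at 112 ± 60.9 CPM in wild-type and 47.4 ± 6.46 CPM in the mutant, which gave a log2 fold change of -1.24 (SE 0.37) with an edgeR adjusted p of 0.0502, the nearest to the threshold from outside. Its transcript shares 91.08% identity over 69.4% of its length with *SERK5* (*AT2G13800*), so reads could have been split between these genes. *SOBIR1* (*AT2G31880*), the adaptor kinase of receptor-like proteins, was at 401 ± 233 and 156 ± 44.4 CPM (log2 fold change -1.36, SE 0.41, edgeR adjusted p = 0.054). *BIR1* (*AT5G48380*), which binds *BAK1* protein and restrains immunity, was at 163.9, 413 and 189 CPM in wild type and at 110.6, 88.5 and 117 CPM in the mutant. These groups did not overlap, and the log2 fold change was -1.27 (SE 0.34, edgeR adjusted p = 0.0392).

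Below the receptors were 3 pairs of related genes: *BIK1* and *PBL1*, *RBOHD* and *RBOHF*, and *CPK28* and *CPK5*. In each pair 1 of the 2 genes was lower in *ref4-3* plants (*BIK1*, *RBOHD* and *CPK28*), beside 11.9% of all tested genes. The other gene did not pass the threshold, which is not a test of a difference between the genes of a pair. *BIK1* (*AT2G39660*), the cytoplasmic kinase that carries the signal from several receptor complexes, was at 19.8, 55.8 and 32.7 CPM in wild type and at 9.96, 9.19 and 10.4 CPM in the mutant. The lowest wild-type library lay well above the highest *ref4-3* library, with a log2 fold change of -1.87 (SE 0.34, edgeR adjusted p = 0.0125). *PBL1* (*AT3G55450*), which overlaps with *BIK1* in function, was at 66.9 ± 6.52 and 54.2 ± 3.99 CPM (log2 fold change -0.30, edgeR adjusted p = 0.116).

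*RBOHD* (*AT5G47910*), the oxidase that makes the immune burst of reactive oxygen and a substrate of *BIK1*, was at 102.5, 382 and 119.9 CPM in wild type and at 59.0, 37.3 and 49.9 CPM in the mutant. Wild-type replicate 2 was far above the other wild-type libraries, and the log2 fold change of -2.05 (SE 0.50, edgeR adjusted p = 0.0295) was -1.21 without it. *RBOHF* (*AT1G64060*), the other oxidase, was at 13.5, 20.4 and 13.1 CPM in wild type and at 17.3, 23.2 and 23.1 CPM in the mutant, with overlapping groups (log2 fold change 0.44, SE 0.21, edgeR adjusted p = 0.167). *CPK28* (*AT5G66210*), a calcium-dependent kinase that promotes turnover of *BIK1* protein, was at 119.1, 524 and 183 CPM in wild type and at 55.0, 47.3 and 65.2 CPM in the mutant. As for *RBOHD*, the spread was in wild type: the log2 fold change was -2.30 (SE 0.51, edgeR adjusted p = 0.0227) and -1.46 without wild-type replicate 2. *CPK5* (*AT4G35310*), which phosphorylates *RBOHD* protein, was at 217 ± 46.1 and 171 ± 13.3 CPM (log2 fold change -0.34, edgeR adjusted p = 0.191).

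The 11 genes of the MAP kinase group, counting the *MPK4* substrate gene *MKS1*, all had negative log2 fold changes, with a median of -1.02. Of the 23050 tested genes, 11291 had a negative value. However, with library totals in place of TMM factors the log2 fold changes of *MPK6* and *MKK1* were 0.03 and 0.05. Of the 11, 5 were lower at the threshold, beside 11.9% of all tested genes, and for 10 the highest mutant library was below the lowest wild-type library, beside 22.8%. *MPK3* (*AT3G45640*, chromosome 3 from 16756571 to 16758874, plus strand) was at 208, 642 and 296 CPM in wild type and at 90.5, 70.5 and 94.8 CPM in the mutant, which gave a log2 fold change of -2.16 (SE 0.40, edgeR adjusted p = 0.0131). *MPK6* (*AT2G43790*), which acts alongside *MPK3*, was at 60.6, 61.1 and 69.3 CPM in wild type and at 54.6, 53.5 and 55.7 CPM in the mutant. Its groups did not overlap, but the difference was small (log2 fold change -0.22, SE 0.11, edgeR adjusted p = 0.176).

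*MPK11* (*AT1G01560*, chromosome 1 from 202103 to 204440, plus strand), a close relative of *MPK4* that is activated by flagellin peptide, showed with *PUB23* the largest decreases of the 43 genes, and *PUB23* had the larger of these in 4 of the 6 fits that left out a library. Its levels were 39.2, 174 and 57.55 CPM in wild type and 6.45, 4.115 and 9.02 CPM in the mutant. Every wild-type library lay above every *ref4-3* library, with a log2 fold change of -3.78 (SE 0.60, edgeR adjusted p = 0.00867), and of -2.90 without wild-type replicate 2. *MPK4* (*AT4G01370*), the kinase that restrains defense when intact, was at 62.8, 73.45 and 59.45 CPM in wild type and at 49.4, 50.9 and 52.4 CPM in the mutant. The groups did not overlap, and the log2 fold change was -0.36 (SE 0.12, edgeR adjusted p = 0.0707). A gene on the opposite strand, *AT4G01380*, overlaps 27.5% of the span of *MPK4*, and how the counting treated strand was not stated. Opposite-strand genes also overlap 26.6% of the span of *WAK2*, 22.7% of *SOBIR1*, 19.5% of *PEPR2*, 16.2% and 13.01% of *MKS1* (by a pair of genes) and 15.85% of *MKK5*.

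Among the kinases above them, *MKK9* (*AT1G73500*), which acts upstream of *MPK3* and *MPK6*, was at 51.7, 120.8 and 55.8 CPM in wild type and at 16.9, 12.3 and 13.1 CPM in the mutant. The log2 fold change was -2.43 (SE 0.34, edgeR adjusted p = 0.00616), the largest of the MAP kinase kinases measured here. *MKK2* (*AT4G29810*), in the *MPK4* branch, fell from 57.2 ± 8.88 to 32.3 ± 3.64 CPM (log2 fold change -0.82, SE 0.15, edgeR adjusted p = 0.0125). Its partner *MKK1* (*AT4G26070*) was at 64.2 ± 13.1 and 55.5 ± 5.02 CPM (log2 fold change -0.21, edgeR adjusted p = 0.388). *MEKK1* (*AT4G08500*), above *MKK1* and *MKK2*, missed the threshold at 59.6 ± 29.4 and 29.3 ± 1.15 CPM (log2 fold change -1.02, edgeR adjusted p = 0.0509). *MKK4* (*AT1G51660*) and *MKK5* (*AT3G21220*), the kinases of *MPK3* and *MPK6*, had log2 fold changes of -1.18 (edgeR adjusted p = 0.063) and -0.74 (edgeR adjusted p = 0.0743). *MKS1* (*AT3G18690*), a substrate of *MPK4* that binds a WRKY transcription factor, was at 18.6, 39.4 and 18.6 CPM in wild type and at 8.48, 10.8 and 9.18 CPM in the mutant. Here too the groups were apart, with a log2 fold change of -1.43 (SE 0.31, edgeR adjusted p = 0.0199).

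**Figure D2:**
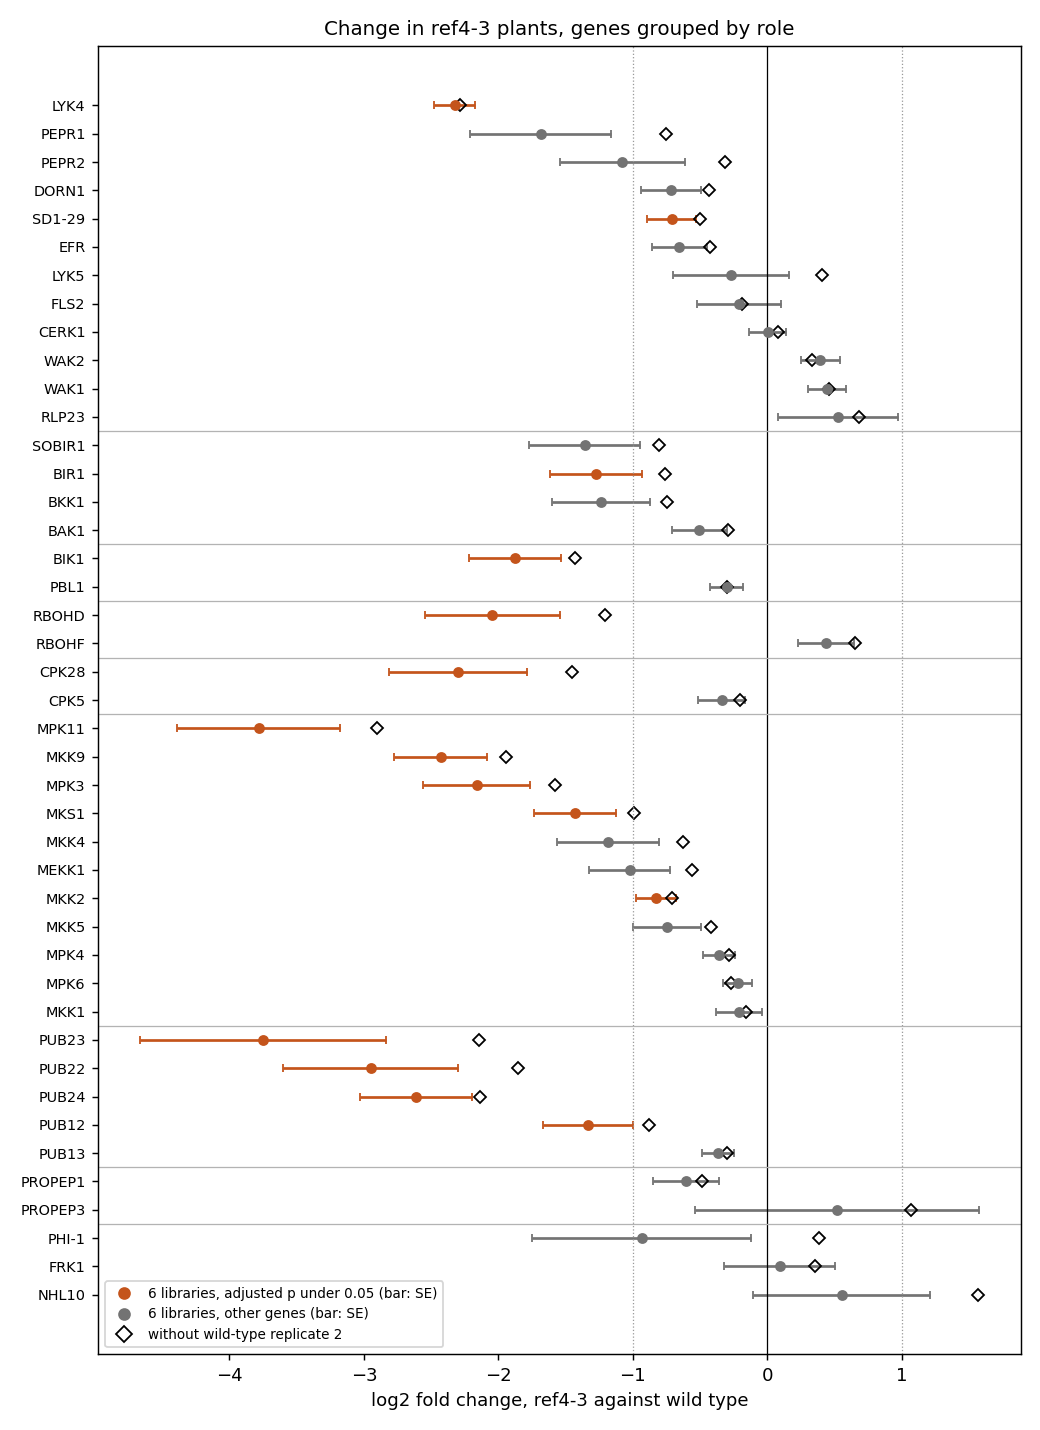
Log2 fold change of *ref4-3* against wild type for the 43 tested genes, in the same role groups, with bars of 1 SE from edgeR. Orange points are the 15 genes with an adjusted p-value under 0.05, dotted lines mark a 2-fold change, and open diamonds give the value without wild-type replicate 2, which for *PUB23* moved from -3.75 to -2.15 and for *LYK4* from -2.32 to -2.29.

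Of the plant U-box ligase genes, 4 of 5 were lower, beside 11.9% of all tested genes, and for all 5 the highest mutant library was below the lowest wild-type library, beside 22.8%. *PUB22*, *PUB23* and *PUB24* code for related ubiquitin ligases that together damp the response to microbial patterns. *PUB22* (*AT3G52450*) was at 3.17, 17.4 and 4.58 CPM in wild type and at 0.871, 1.20 and 1.174 CPM in the mutant, which gave a log2 fold change of -2.95 (SE 0.65, edgeR adjusted p = 0.0218), or -1.86 without wild-type replicate 2. *PUB23* (*AT2G35930*) was at 9.01, 116.4 and 23.2 CPM in wild type and at 2.70, 2.85 and 5.47 CPM in the mutant. This gave a log2 fold change of -3.75 (SE 0.91, edgeR adjusted p = 0.0292), or -2.15 without wild-type replicate 2. The wild-type libraries of *PUB23* differed among themselves 12.9-fold, and the lowest of them was still above the highest *ref4-3* library. An opposite-strand gene, *AT2G35935*, overlaps 57.95% of the span of *PUB23*, so its counts could include reads from that gene. *PUB24* (*AT3G11840*) was at 21.1, 60.2 and 32.9 CPM in wild type and at 4.30, 5.90 and 8.47 CPM in the mutant, and its log2 fold change of -2.61 (SE 0.42, edgeR adjusted p = 0.00854) changed least of the 3 when wild-type replicate 2 was left out, to -2.14.

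*PUB12* and *PUB13* code for ligases that mark FLS2 protein for degradation. *PUB12* (*AT2G28830*) was at 7.21, 19.2 and 10.6 CPM in wild type and at 4.82, 5.075 and 4.79 CPM in the mutant, with a log2 fold change of -1.33 (SE 0.33, edgeR adjusted p = 0.0317). *PUB13* (*AT3G46510*) was at 80.2 ± 8.25 and 62.1 ± 1.74 CPM (log2 fold change -0.37, edgeR adjusted p = 0.0642). Per kilobase of exon, *PUB12* was at 6.34 and *PUB13* at 29.5 CPM per kb in wild type, so the transcript of lower level had the larger fold change.

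Upstream sequences are shown for the ligase genes *PUB22*, *PUB23* and *PUB24*, each lower in *ref4-3* plants. They are also shown for *MPK11*, with a log2 fold change near that of *PUB23*, and for *FRK1*, an early response marker that did not pass the threshold. WRKY transcription factors bind the W box, whose core is TTGAC, and many immune genes carry W boxes upstream. Each sequence is the 250 bases before the annotated gene start in the RefSeq genome TAIR10.1, read 5′ to 3′ on the strand of the gene, and capitals mark TTGAC, or GTCAA where the core lies on the other strand.
PUB22 (chr3:19442428-19442677, minus strand): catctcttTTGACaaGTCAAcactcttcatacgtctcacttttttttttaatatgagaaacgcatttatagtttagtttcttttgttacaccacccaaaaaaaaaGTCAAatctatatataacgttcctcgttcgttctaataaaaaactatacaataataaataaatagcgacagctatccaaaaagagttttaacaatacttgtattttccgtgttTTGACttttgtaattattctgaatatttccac
PUB23 (chr2:15084560-15084809, minus strand): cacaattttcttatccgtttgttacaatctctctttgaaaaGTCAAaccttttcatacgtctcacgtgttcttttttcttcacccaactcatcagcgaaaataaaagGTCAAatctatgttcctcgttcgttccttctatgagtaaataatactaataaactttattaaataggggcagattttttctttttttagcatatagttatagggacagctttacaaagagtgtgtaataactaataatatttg
PUB24 (chr3:3738209-3738458, minus strand): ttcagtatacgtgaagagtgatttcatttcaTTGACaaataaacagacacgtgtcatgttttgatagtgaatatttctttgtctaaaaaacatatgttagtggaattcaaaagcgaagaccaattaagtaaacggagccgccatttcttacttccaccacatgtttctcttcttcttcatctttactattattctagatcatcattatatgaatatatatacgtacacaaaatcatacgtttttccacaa
MPK11 (chr1:201853-202102, plus strand): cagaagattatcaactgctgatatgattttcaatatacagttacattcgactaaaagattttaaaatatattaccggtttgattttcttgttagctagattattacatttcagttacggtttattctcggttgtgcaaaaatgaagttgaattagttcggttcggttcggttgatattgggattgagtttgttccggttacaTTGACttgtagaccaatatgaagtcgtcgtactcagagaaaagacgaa
FRK1 (chr2:8329945-8330194, minus strand): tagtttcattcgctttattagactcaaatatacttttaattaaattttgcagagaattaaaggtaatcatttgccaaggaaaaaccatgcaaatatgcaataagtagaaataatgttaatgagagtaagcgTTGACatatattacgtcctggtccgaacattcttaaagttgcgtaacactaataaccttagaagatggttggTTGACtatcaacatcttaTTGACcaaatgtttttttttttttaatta

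*PUB22* held 4 matches, of which the pair 242 and 235 bases before the gene start faced each other across 2 bases. *PUB23* held 2, *PUB24* and *MPK11* held 1 each, and *FRK1* held 3. Over the 44 genes, TTGAC was found on either strand in 32 windows (72.7%), beside 44.9% of the windows of 27443 protein-coding genes. At least 2 matches were present in 34.1% of the 44 and in 14.1% of all windows. Of the 13 genes that were lower by more than 2-fold, 9 (69.2%) had a match, and of the 29 genes that did not pass the threshold or were not tested, 21 (72.4%) had a match. The G box CACGTG was found in 3 of the 44 windows (6.82%), including those of *PUB23* and *PUB24*, beside 6.49% of all windows, and CGCGTT in 3 (6.82%), beside 2.59%. The search used both strands, and no letters of TTGAC matches were shared with either of the other motifs in the windows shown. A match is a description of these letters and not evidence of binding.

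The precursors of danger peptides were low in both genotypes. *PROPEP1* (*AT5G64900*), a precursor of the Pep peptides that *PEPR1* binds, was at 2.02 ± 0.375 and 1.32 ± 0.140 CPM (log2 fold change -0.60, edgeR adjusted p = 0.116). *PROPEP2* (*AT5G64890*) had 7, 8 and 6 counts in wild type and 5, 5 and 7 counts in *ref4-3* plants and was the 1 gene that failed the filter on low counts. *PROPEP3* (*AT5G64905*) had 2, 14 and 9 counts in wild type and 31, 0 and 12 counts in *ref4-3* plants. At these counts a difference was not detectable for either gene.

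*FRK1* (*AT2G19190*), a receptor kinase gene widely used as a marker of flagellin response, was at 1.40, 3.79 and 3.30 CPM in wild type and at 3.25, 1.85 and 3.89 CPM in the mutant. *NHL10* (*AT2G35980*), another marker, was at 0.667, 3.06 and 0.826 CPM in wild type and at 1.71, 1.13 and 3.83 CPM in the mutant. Neither gene separated the genotypes, with log2 fold changes of 0.09 (SE 0.41, edgeR adjusted p = 0.882) and 0.55 (SE 0.66, edgeR adjusted p = 0.557), the latter 1.57 without wild-type replicate 2. *PHI-1* (*AT1G35140*), an early flagellin-responsive gene, was at 5.97, 94.2 and 28.1 CPM in wild type and at 14.8, 19.1 and 33.2 CPM in the mutant. The wild-type libraries covered the whole range of the *ref4-3* libraries, and the log2 fold change of -0.93 (SE 0.81, edgeR adjusted p = 0.418) became 0.38 without wild-type replicate 2.

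For genes with counts in every library, the highest library of a genotype was divided by the lowest. Over 22699 tested genes the median of this ratio was 1.38 in wild-type and 1.27 in *ref4-3* plants, whereas over 42 of the immune signaling genes it was 2.21 and 1.27. For the 15 lower genes it was 2.81 in wild-type and 1.34 in *ref4-3* plants. *PHI-1* and *PUB23* had the widest wild-type ratios, 15.8 and 12.9. *LYK4* was at 1.21 and 1.11, under the all-gene median in both genotypes. No test was made of these ratios, since they rest on 3 libraries of a genotype each.

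**Figure D3:**
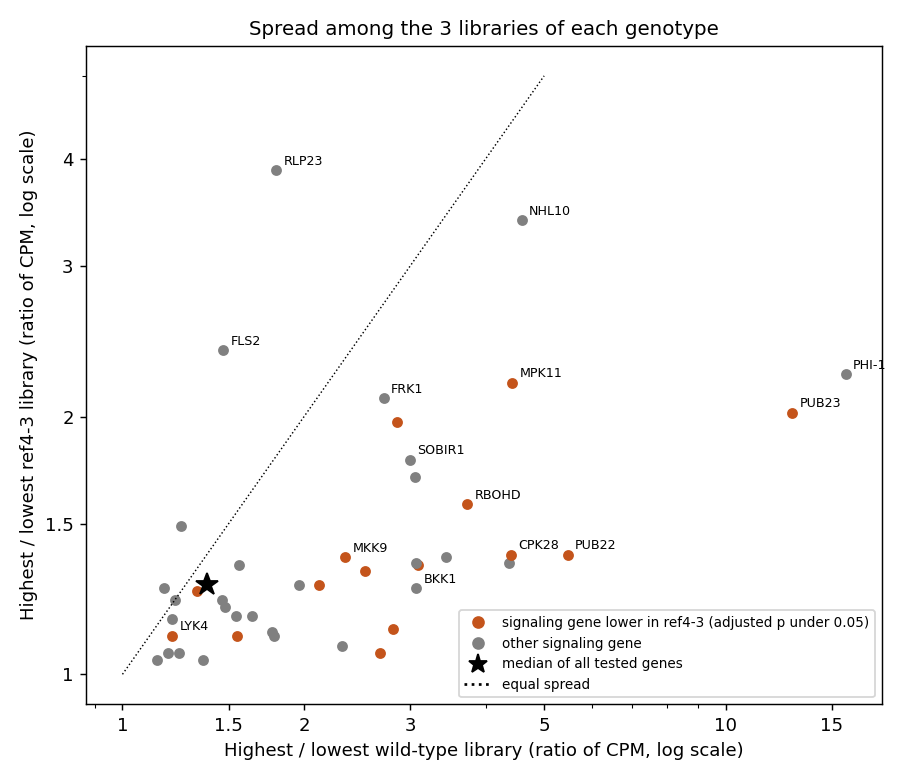
Highest divided by lowest library (ratio of CPM) of each immune signaling gene in wild type (horizontal) and in *ref4-3* plants (vertical), both on log axes. The untested *PROPEP2* is drawn, and *PROPEP3*, at 0 in *ref4-3* replicate 2, is not. Orange points are the 15 genes lower in *ref4-3* plants, the star is the median of all tested genes at 1.38 and 1.27, and most points lie to the right of the dotted line of equal spread.

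To ask whether related genes moved apart, the log2 ratio of their CPM was computed in each library for 18 pairs of related genes. In 10 pairs the ratios of the genotypes did not overlap, which has no share of comparable pairs beside it here (single genes did not overlap in 22.8% of cases downward and 22.4% upward). This gives an exact two-sided permutation p of 0.1 for 3 against 3 libraries, the smallest this design allows, and a Benjamini-Hochberg adjusted p of 0.18 over the 18 pairs. *MPK4* to *MPK11* moved most: the log2 ratio was 0.68, -1.24 and 0.05 in wild type and 2.94, 3.62 and 2.54 in *ref4-3* plants. *RBOHD* to *RBOHF* had ratios of 2.93, 4.23 and 3.19 in wild type and 1.77, 0.69 and 1.12 in *ref4-3* plants. The first ratio was higher and the second lower in every *ref4-3* library than in any wild-type library.

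Mean log2 ratios of *LYK4* to *LYK5* were -2.10 in wild-type and -4.30 in *ref4-3* plants, and those of *MPK3* to *MPK6* were 2.42 and 0.63. For *CPK5* to *CPK28* they were -0.08 and 1.63, and for *BIK1* to *PBL1* -1.01 and -2.46. The other pairs without overlap were *BAK1* to *BKK1*, *PEPR1* to *PEPR2*, *MKK1* to *MKK2* and *PUB12* to *PUB13*, with differences of 0.63, -0.52, 0.63 and -0.85 between the genotypes. In contrast, the ratios of *PUB22* to *PUB24*, *WAK1* to *WAK2* and *CERK1* to *LYK5* overlapped and differed by -0.01, 0.05 and 0.13 on the log2 scale (exact permutation p = 1, 0.9 and 1). Those of *PUB22* to *PUB23*, *MKK4* to *MKK5* and *FLS2* to *EFR* overlapped with larger differences of 0.51, -0.35 and 0.33. The ratios of *PROPEP1* to *PROPEP2* and of *PROPEP2* to *PROPEP3*, at low counts, overlapped as well.

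**Figure D4:**
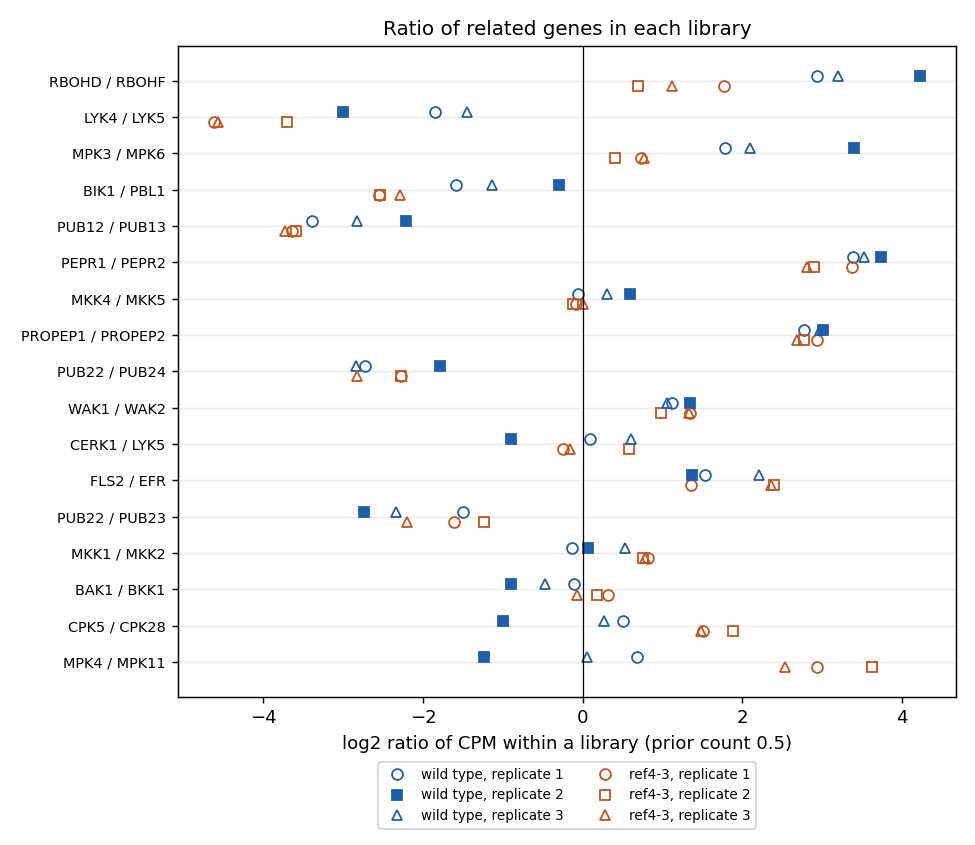
Log2 ratio of the CPM of the first to the second gene (prior count 0.5) in each library, for 17 of the 18 pairs, with *PROPEP2* to *PROPEP3* left out because of their low counts. Blue symbols are wild-type and orange symbols *ref4-3* libraries, and the pairs run from the largest decrease of the ratio, *RBOHD* to *RBOHF* at -2.26, to the largest increase, *MPK4* to *MPK11* at 3.20.

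Per kilobase of annotated exon, the most abundant of the 44 transcripts in wild type were *MPK3* at 206, *SOBIR1* at 193, *WAK1* at 122, *CPK28* at 109 and *BIR1* at 89.8 CPM per kb. In *ref4-3* plants they were *WAK1* at 165.8, *SOBIR1* at 75.0, *CPK5* at 64.5, *WAK2* at 55.0 and *MPK3* at 45.9 CPM per kb. In wild type the SDs of *MPK3*, *SOBIR1*, *CPK28* and *BIR1* were larger than the gaps to their neighbors, so their order was not resolved. Without wild-type replicate 2, *CPK5*, at 73.4 CPM per kb, was above *BIR1* at 61.9 and *CPK28* at 59.7 CPM per kb. *WAK1* was the highest of the 44 in the mutant.

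Of 42 further genes of pattern immunity, 41 were tested, and 8 (19.5%) were lower, beside 11.9% of all tested genes, and 1 was higher, beside 8.52%, with a median log2 fold change of -0.31. The count of 8 depended on single libraries: it was 1, 0 and 0 without *ref4-3* replicate 1, 2 or 3. The lower genes among all genes went from 2737 to 1757, 1028 and 588, respectively, in these fits. Of 4 genes for phosphatases that inactivate MAP kinases, 3 were lower. *AP2C1* had the largest decrease, from 42.9, 327 and 57.3 CPM in wild type to 12.8, 9.67 and 12.7 CPM in the mutant (log2 fold change -3.60, edgeR adjusted p = 0.0203). *MKP1* and *PTP1* had log2 fold changes of -0.68 and -0.43 (edgeR adjusted p = 0.0483 and 0.0356), whereas *MKP2* had a positive value of 0.38 that missed the threshold (edgeR adjusted p = 0.094), with all mutant libraries above all wild-type libraries. The others were the G protein subunit genes *XLG2* (-1.54) and *AGB1* (-0.87), the calcium-dependent kinase gene *CPK4* (-0.93), the peptide gene *RALF23* (-0.39) and *AT3G09830* (-1.77), with edgeR adjusted p-values of 0.0232 to 0.0486. *WAK4*, another wall-associated kinase gene, was at 0.857, 0.556 and 0.991 CPM in wild type and at 1.37, 2.09 and 3.28 CPM in the mutant, which gave a log2 fold change of 1.49 (SE 0.39, edgeR adjusted p = 0.0371). All *ref4-3* values of *WAK4* were above all wild-type values, as for *WAK1* and *WAK2*. Those of *WAK3* overlapped, at 6.51, 12.4 and 8.96 CPM in wild type and 23.4, 10.8 and 29.6 CPM in the mutant (log2 fold change 1.20, SE 0.38, edgeR adjusted p = 0.0617), and *WAK5*, with 0 to 10 counts per library, was not tested.

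Genes that act below the MAP kinases were tested as well. Of 10 such genes, 7 were lower, beside 11.9% of all tested genes, and all 7 by more than 2-fold, with a median log2 fold change of -2.45 over the 10. They were the transcription factor genes *WRKY33* (-3.65), *WRKY53* (-3.65), *ERF6* (-4.32) and *ERF104* (-2.08), the ethylene synthesis gene *ACS6* (-2.82), the camalexin synthesis gene *PAD3* (-2.05) and *CYP81F2* (-4.27), which modifies indole glucosinolates, with edgeR adjusted p-values of 0.00466 to 0.0474. *WRKY33*, whose protein is phosphorylated by *MPK3* and *MPK6* proteins, was at 259, 828 and 248 CPM in wild type and at 43.1, 28.3 and 34.7 CPM in the mutant. *WRKY22*, *WRKY29* and *ACS2* did not pass the threshold. Without *ref4-3* replicate 2 or 3 the count was 4 in each case. The lower genes among all genes went from 2737 to 1028 and 588, respectively, in these fits.

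Genes that rise within minutes of touch, wounding or elicitors were given the same test, because genes of early immune signaling are often of this class. Of 12, 9 were lower, beside 11.9% of all tested genes, each by more than 2-fold, with a median log2 fold change of -3.47 over the 12. The count was 4 and 3 without *ref4-3* replicate 2 or 3, and that of all genes 1028 and 588, against 2737. Those 9 were *WRKY40*, *ZAT10*, *ERF5*, *RRTF1*, *SZF1*, *TCH2*, *TCH3*, *CBF2* and *ORA47*. The summed level of the 12 genes was 1119, 5201 and 1757 CPM in wild type and 574.7, 510.9 and 677.9 CPM in the mutant. The library that was highest for the immune signaling genes, wild-type replicate 2, was also highest for these genes, and the order of the 3 wild-type libraries was the same for both sums. The part of this library in the differences of the 12 genes was tested only by leaving it out. After this 8 of them were lower, beside 8.05% of all tested genes.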

How the data were processed

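RNA-seq libraries of 3 wild-type and 3 *ref4-3* replicates were used as labeled. According to the labels and the study's methods, the authors trimmed the read pairs (fastp 0.23.2), aligned them to TAIR10 with HISAT2 2.2.1, processed alignments with SAMtools 1.17 and obtained raw counts per gene; the deposited values are these counts without normalization. The kit was directional, but the strand setting of counting and the treatment of multi-mapping reads are not given in the sources used here. Total counts per library were 26060005 to 32879414.

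Tests used edgeR 4.0.16 under R 4.3.3, with filterByExpr (minimum count 10, minimum total 15), TMM factors, the two-sided quasi-likelihood test and Benjamini-Hochberg adjustment over 23050 genes, with calls at an adjusted p-value under 0.05. The SE was derived from the F statistic. CPM are the counts scaled by library total and TMM factor. Ratios of related genes used a prior count of 0.5 and an exact permutation test (SciPy 1.17.1). The procedure was tested on simulated data. Replicates of a genotype differed by more than sampling noise, so none was counted as a duplicate. Same-numbered replicates did not deviate together (r = -0.10, -0.02 and 0.21), and the main fit has no block.

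Coordinates, exon lengths and upstream windows of 250 bases come from RefSeq's TAIR10.1, whose name differs from that of the authors' build; all 44 genes were matched by locus identifier. Similar transcripts were searched with BLAST+ 2.17.0.

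All 44 genes are named; values per library are given for those lower by more than 2-fold and for 11 chosen core genes, and for a few others chosen after their values were seen. Genes of other lists are named where they passed the threshold. The 44 genes and the lists were chosen with earlier results of these data known. Alternatives were edgeR's exact test, DESeq2 1.42.0, RLE factors, library totals, other filters, a replicate block and leaving out each library. Wild-type levels per kilobase without replicate 2 were added after the values had been seen.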

Additional observations from a re-analysis of the deposited data

How the results depend on the processing

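Of the 44 genes, 15 were lower in *ref4-3* plants in the main analysis. The count was 23 with edgeR's exact test, 24 with DESeq2 and 23 with no filter on low counts, and each of these included the same 15 genes. Lower calls over all genes also rose, from 2737 of 23050 to 3265 of 23050, 3676 of 27745 and 3303 of 36156, respectively. With RLE factors 15 of the 44 genes were lower, beside 2652 of 23050 genes. With at least 10 counts in every library 15 were lower, beside 2235 of 19640, and with library totals 14, beside 1518 of 23050. The count of the 44 genes ranged from 4 to 22 when each library was left out, beside 588 to 2910 lower genes over all genes. The count lower by more than 2-fold ranged from 4 to 18 over the same fits, beside 456 to 1471 over all genes. In these fits the median log2 fold change of the immune signaling genes ranged from -0.91 to -0.43. The number of higher genes among the 44 was 3 with library totals, beside 4387 over all genes. It was 1 with at least 10 counts in every library, beside 2103, and 0 to 1 when a library was left out, beside 420 to 1729. Library totals moved the median log2 fold change of all genes to 0.26 and the counts over all genes from 2737 lower and 1964 higher to 1518 and 4387; with no filter the median was 0.18 and the counts 3303 and 1412. The further pattern immunity genes had 8 lower in the main analysis, 4 with library totals, 4 with at least 10 counts in every library, and 0 to 10 when a library was left out. The genes below the MAP kinases had 4 to 8 lower and the rapidly induced genes 3 to 10 when a library was left out, and 10 to 13 pairs of related genes had ratios without overlap. With a prior count of 2 there were 10 such pairs. Leaving out *ref4-3* replicate 3 gave 588 lower and 420 higher genes among all genes, the fewest of any setting.

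With the replicate number as a block, 11 of the 44 genes were lower, beside 2064 of 23050 genes, against 2737 in the main analysis. *RBOHD*, *SD1-29*, *BIR1* and *PUB23* missed the threshold. In the same fit 3 of the further pattern immunity genes, 5 of the genes below the MAP kinases and 8 of the rapidly induced genes were lower. The samples share only a number, so these are not read as weaker effects.

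Signs changed for genes that did not pass the threshold. With library totals, log2 fold changes were 0.056 for *FLS2*, 0.029 for *MPK6* and 0.048 for *MKK1*. *CERK1* was at -0.049 with DESeq2 and -0.098 with no filter, and *FRK1* at -0.012 with no filter. When a library was left out, the log2 fold change ranged from -0.44 to 0.082 for *FLS2*, -0.142 to 0.077 for *CERK1*, -0.586 to 0.408 for *LYK5*, -0.263 to 0.354 for *FRK1*, -0.653 to 1.072 for *PROPEP3*, -0.10 to 1.565 for *NHL10* and -1.481 to 0.383 for *PHI-1*. The causes were not tested. Precision is limited by 3 libraries per genotype and, for *PROPEP2* and *PROPEP3*, by counts of 31 or fewer.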
